A study of Mus musculus with 6 samples.

Results

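Lipid-associated macrophages are the macrophages that gather where lipid has to be cleared, and the 10 genes described here, Gpnmb, Trem2, Spp1, Lpl, Fabp4, Fabp5, Apoe, Cd9, Cd63 and Abcg1, are among the genes used to recognise them. The 10 genes were taken by name from a list of TREM2-type lipid-laden macrophage genes, by a rule that uses no measured value. The list itself was chosen with earlier results of these data known. Each of the 10 genes had 1 entry in every count table, out of 23238 gene symbols in all. They were measured by RNA sequencing in whole lung of wild-type mice (genotype WT), which had received PM or its vehicle, PBS (labelled Veh (PBS)), with i.t. as the only word on the route. The series title calls the exposure chronic. The labels leave PM unexplained and name no strain, sex, age, dose or duration. They also do not state that each sample is a different animal, and p-values therefore rest on a spread between samples that may be technical. Each group has 3 samples, but the tables of PBS replicates 1 and 2 hold identical values, differ by less than sampling noise and were counted as 1 sample, which leaves 2 PBS and 3 PM libraries.

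In a lipid-associated macrophage, the surface receptor TREM2 binds lipids and lipoproteins and signals through the adaptor TYROBP. Lipoprotein lipase frees fatty acids, fatty acid binding proteins carry them inside the cell, and apolipoprotein E with the transporter ABCG1 carries cholesterol out. GPNMB and the tetraspanins CD63 and CD9 belong to the membranes of lysosomes, endosomes and the cell surface, and osteopontin, the product of Spp1, is secreted. In the lung, alveolar macrophages take up surfactant lipid and hold lipid-handling genes even at rest. None of the 10 genes is made by macrophages alone: Fabp4 and Lpl are also genes of fat cells, Fabp4 of capillary endothelium, Apoe of many stromal cells, and Cd9 and Cd63 of most cell types.

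The libraries held 7410200 to 8827202 counts, and a gene without counts could still lie at up to 0.340 to 0.405 CPM (counts scaled to one library size; the range is what 3 counts are worth), by counting error alone. Values below are CPM after TMM scaling, which sets libraries level on the bulk of their genes, in the order PBS replicates 1 and 3, then PM replicates 1, 2 and 3. Ribosomal precursor RNA (Rn45s) took 15.7% to 25.4% of counts, and haemoglobin genes 0.632% to 5.41%, the most in PBS replicate 1. Epithelial markers of the lung (Sftpc and 6 others) summed to 18673 to 24000 CPM in every library. In a piece of whole lung, fewer cells of a type and less RNA per cell cannot be told apart.

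The stretches around the start sites of Gpnmb and Trem2 are shown because these genes had the largest folds of the 10 and the same order of PM libraries (below). The sequences are from RefSeq (GRCm38.p6, the assembly that mm10 names), and 6 of the 10 genes matched that table, with 9 windows of 300 bases in all, from 250 bases before a start site. Capitals mark letters of the AP-1 element TGANTCA and, in Trem2, also of the nuclear receptor element AGGTCA, on either strand. The Gpnmb window is chr6:49036268-49036567 on the plus strand and the Trem2 window chr17:48346151-48346450 on the plus strand.
Gpnmb: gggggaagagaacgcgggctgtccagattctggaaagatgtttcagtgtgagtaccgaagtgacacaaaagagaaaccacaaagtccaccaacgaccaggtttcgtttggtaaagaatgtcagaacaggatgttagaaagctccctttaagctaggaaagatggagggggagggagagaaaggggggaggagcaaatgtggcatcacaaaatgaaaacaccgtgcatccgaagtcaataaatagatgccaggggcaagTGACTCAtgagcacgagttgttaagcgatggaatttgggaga
Trem2: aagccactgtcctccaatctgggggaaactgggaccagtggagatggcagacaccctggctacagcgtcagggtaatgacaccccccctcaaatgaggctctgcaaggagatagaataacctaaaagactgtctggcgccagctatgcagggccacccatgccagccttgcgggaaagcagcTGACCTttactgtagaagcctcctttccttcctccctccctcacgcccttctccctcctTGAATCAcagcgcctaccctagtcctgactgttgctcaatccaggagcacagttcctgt
TGANTCA was present in 2 of the 9 windows, those of Gpnmb (bases 9 to 15 from the start site) and Trem2 (bases -9 to -3), and in 7.81% of 32851 windows of all genes. AGGTCA was present in 1 of the 9, that of Trem2 (bases -68 to -63), and in 16.3% of all. The E-box CACGTG (7.15% of all windows) and the M-box TCATGTG (3.77%) were in none of the 9. The ETS element GAGGAAGT (3.20%) was in 1, that of Spp1, and the TATA box TATAAA (13.6%) in 2, those of Spp1 and Apoe. In Apoe, 2 TATA matches on opposite strands overlap. A match describes letters only, and a window without a match holds no such letters in these 300 bases.

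Of the 10 genes, 7 were higher in every PM library than in either PBS library, namely Gpnmb, Trem2, Spp1, Lpl, Fabp4, Fabp5 and Cd63. Apoe was lower in every PM library, and the groups overlapped for Cd9 and Abcg1. Of all 14057 genes tested, 15.5% had every PM library above both PBS libraries, 16.1% had every one below, and 68.4% overlapped. None of the 10 passed edgeR's quasi-likelihood test for PM against PBS (two-sided, Benjamini-Hochberg adjusted p below 0.05 over all genes), which called 0.228% of genes. At an unadjusted p below 0.05, 6 of the 10 were higher (Trem2, Spp1, Lpl, Fabp4, Fabp5 and Cd63) and 0 lower, against 7.26% and 6.05% of all genes. DESeq2 called 4 of the 10 higher (Trem2, Spp1, Lpl and Fabp5) with 1.90% of all genes called higher, and limma-voom called 0, with 0.0854% of all genes called higher. Other fits called 1 of the 10 with no filter on low counts (0.915% of all genes called higher), 4 with all 6 tables (2.50%), 5 with the replicate number as a block (1.57%), 3 without PM replicate 2 (0.561%) and 2 without PM replicate 3 (1.87%). The median log2 fold of the 10 genes was 0.53, and that of all genes tested 0.01.

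**Figure D1:**
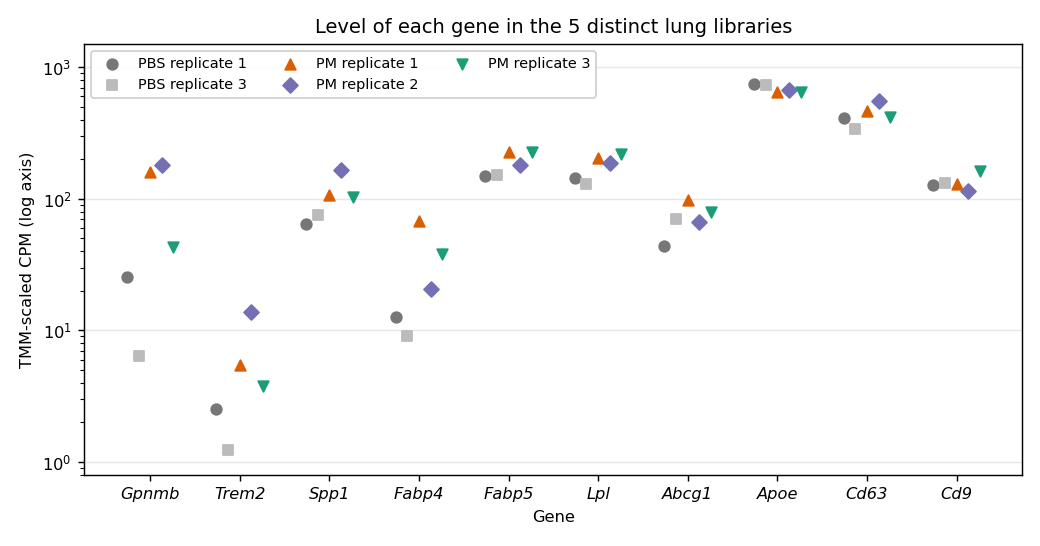
Each point is the TMM-scaled CPM (log axis) of a gene in 1 of the 5 distinct libraries, with PBS in grey and PM in colour. Gpnmb, Trem2 and Fabp4 spread the most between libraries, and Apoe spans only 644 to 740 CPM.

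Trem2, the lipid receptor that gives the group its name, was a gene of few counts. It lies on chromosome 17 at 48346401 to 48352276 (plus strand, RefSeq GRCm38.p6) and its longest coding transcript in GENCODE M21 has 5 exons. It had 22 and 10 counts in PBS and 47, 97 and 30 in PM, or 2.55 and 1.23 CPM against 5.49, 13.9 and 3.78 CPM. PM replicate 2 was the highest and PM replicate 3 the nearest to PBS. The exact Poisson intervals at 95%, which cover counting error only, were 1.60 to 3.86 CPM in PBS replicate 1 and 2.55 to 5.40 CPM in PM replicate 3, and so overlapped. The means were 1.89 ± 0.930 CPM in PBS (SD, n = 2) and 7.73 ± 5.42 CPM in PM (SD, n = 3). The log2 fold was 2.003 ± 0.63 SE (edgeR, Benjamini-Hochberg adjusted p = 0.198). Without PM replicate 3 Trem2 passed the same test, at a log2 fold of 2.33 (edgeR, Benjamini-Hochberg adjusted p = 0.0451, against 0.0451 to 0.797 over the 16 alternatives), and without PM replicate 2 its log2 fold was 1.28.

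Gpnmb, a glycoprotein of lysosomal membranes and the cell surface, had the largest fold of the 10, and 0.462% of tested genes had a higher one. It lies on chromosome 6 at 49036518 to 49058182 (plus strand, RefSeq GRCm38.p6). Its level was 25.5 and 6.42 CPM in PBS and 160, 179 and 43.3 CPM in PM. PM replicates 1 and 2 stood together at 10.01 and 11.2 times the PBS mean, and PM replicate 3 at 2.71 times. The PBS libraries also stood far apart, and PBS replicate 1 was nearer to PM replicate 3 than to PBS replicate 3. With means of 16.0 ± 13.5 and 127 ± 73.5 CPM (SD), the log2 fold was 2.99 ± 1.09 SE (edgeR, Benjamini-Hochberg adjusted p = 0.413). The fold was 4.31 without PBS replicate 1 and 2.32 without PBS replicate 3, on the log2 scale.

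Spp1, which encodes osteopontin, a secreted phosphoprotein that binds integrins and CD44, differed less in size but more evenly. It lies on chromosome 5 at 104435111 to 104441053 (plus strand). Its level was 64.4 and 75.4 CPM in PBS and 106, 167 and 103 CPM in PM. PM replicate 2 was again the highest, and PM replicates 1 and 3 were close to each other. The log2 fold was 0.84 ± 0.22 SE (edgeR, Benjamini-Hochberg adjusted p = 0.153). An annotated gene model on the same strand, Gm42793, holds 11.6% of the 50-base stretches of Spp1, and it has no entry under that name in the tables.

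Lpl, lipoprotein lipase, frees fatty acids from lipoprotein triglyceride, and it came closest of the 10 to the threshold. It lies on chromosome 8 at 68880555 to 68906932 (plus strand). Its level was 145 and 130 CPM in PBS and 204, 188 and 218 CPM in PM. All PM libraries lay between 1.37 and 1.58 times the PBS mean, with little spread inside either group. The means were 138 ± 10.4 and 203 ± 14.6 CPM (SD), and the log2 fold was 0.56 ± 0.12 SE (edgeR, Benjamini-Hochberg adjusted p = 0.0634, against 0.00395 to 0.573 over the 16 alternatives). Lpl passed the same test without PM replicate 2 (log2 fold 0.62; edgeR, Benjamini-Hochberg adjusted p = 0.0452) and without PM replicate 3 (log2 fold 0.51; adjusted p = 0.0353). With PBS replicate 1 or 3 left out, the log2 folds were 0.64 and 0.49 (edgeR, Benjamini-Hochberg adjusted p = 0.444 and 0.573). Lpl was the only one of the 10 called at an adjusted p below 0.10, where 0.896% of all genes were called higher.

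**Figure D2:**
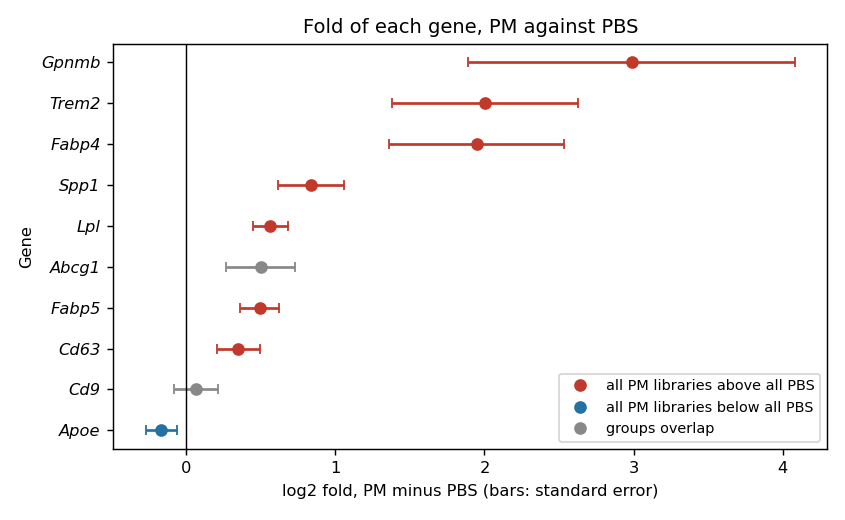
Points are log2 folds of PM minus PBS from edgeR, with bars of 1 standard error; red marks genes whose PM libraries were all above PBS, blue all below, grey overlap. Folds run from 2.99 for Gpnmb to -0.17 for Apoe, and the standard error of Gpnmb (1.09) is the widest.

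Fabp4 and Fabp5 encode fatty acid binding proteins, which carry fatty acids in the cytosol, and lie near each other on chromosome 3, Fabp5 at 10012585 to 10016610 (plus strand) and Fabp4 at 10204342 to 10208616 (minus strand). Their coding sequences were aligned to see whether reads could be confused between the pair, and the first 90 columns of the alignment are shown, with capitals where the sequences differ or where only Fabp5 has a base (GENCODE M21 transcripts on GRCm38).
Fabp4: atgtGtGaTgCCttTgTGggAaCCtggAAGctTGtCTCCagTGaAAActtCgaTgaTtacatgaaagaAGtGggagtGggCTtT
Fabp5: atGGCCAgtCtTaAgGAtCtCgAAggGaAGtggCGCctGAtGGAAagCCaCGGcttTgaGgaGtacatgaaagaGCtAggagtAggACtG
The pair matched at 60.8% of 408 aligned columns, the longest identical run was 12 bases, and no 50-base stretch of Fabp4 occurs in a transcript of another gene. Of Fabp5, 5.48% of 50-base stretches also occur in other genes, namely Gm6166, Gm14328, Fabp5l2, Gm13998 and Gm6100, none of which has an entry under that name in the tables.

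Fabp4 had 110 and 74 counts in PBS and 580, 145 and 300 in PM, or 12.7 and 9.14 CPM against 67.8, 20.8 and 37.8 CPM. PM replicate 1 was the highest and PM replicate 2 the lowest of the PM libraries, at 6.19 and 1.90 times the PBS mean. The log2 fold was 1.95 ± 0.59 SE (edgeR, Benjamini-Hochberg adjusted p = 0.284). The smallest adjusted p over the 16 alternatives, 3.60e-06, came from edgeR's fit with the replicate number as a block. That fit rests on 1 residual degree of freedom and on a pairing that the labels do not state. Without PM replicate 2 Fabp4 passed the test at a log2 fold of 2.27 (edgeR, Benjamini-Hochberg adjusted p = 0.0252).

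Fabp5 stood at 149 and 152 CPM in PBS and 228, 180 and 229 CPM in PM. The PBS libraries were nearly equal, and PM replicate 2 was again the lowest of the PM libraries. Its log2 fold was 0.49 ± 0.13 SE (edgeR, Benjamini-Hochberg adjusted p = 0.128), and 0.60 without PM replicate 2, where it passed (edgeR, Benjamini-Hochberg adjusted p = 0.0411). The smallest adjusted p over the 16 alternatives, 0.00665, again came from edgeR's fit with the replicate number as a block. There were 11.7 and 16.6 counts of Fabp5 for each count of Fabp4 in PBS, and 3.37, 8.66 and 6.04 in PM. Every PM library thus had a lower ratio than either PBS library. The log2 ratio was 3.80 ± 0.36 in PBS and 2.49 ± 0.69 in PM (SD), a difference of -1.32 (two-sided exact permutation test, p = 0.2, the smallest p that 2 against 3 libraries allow).

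The summed markers of fat cells had the same order of libraries as Fabp4. The 10 fat cell markers, 8 of them tested, summed to 62.3 and 41.5 CPM in PBS and 193, 68.4 and 154 CPM in PM; 0 passed edgeR's test, 4 had a higher level with unadjusted p under 0.05, and Ucp1 was at 0 counts in every library. Of the 8 tested, 3 (Plin1, Cidea and Retn) were above both PBS libraries in every PM library, against 15.5% of all genes tested. The groups overlapped for the other 5 (Adipoq, Plin4, Cfd, Cidec and Car3). PBS replicate 1 and PM replicate 2 had equal counts of Plin1 (4 in each) and of Retn (9 in each). For these 2 genes PM replicate 2 was therefore above PBS replicate 1 by library scaling alone. PM replicate 2 had the lowest sum of the PM libraries, still above both PBS sums, and Cidea was at its highest there (5.45 CPM, against 0.464 and 0.370 CPM in PBS) while Adipoq lay between its PBS values (1.29 CPM, against 1.62 and 0.741 CPM). These genes are named after their values were seen. The part of fat tissue in the levels of Fabp4, Fabp5 and Lpl was not tested.

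**Figure D3:**
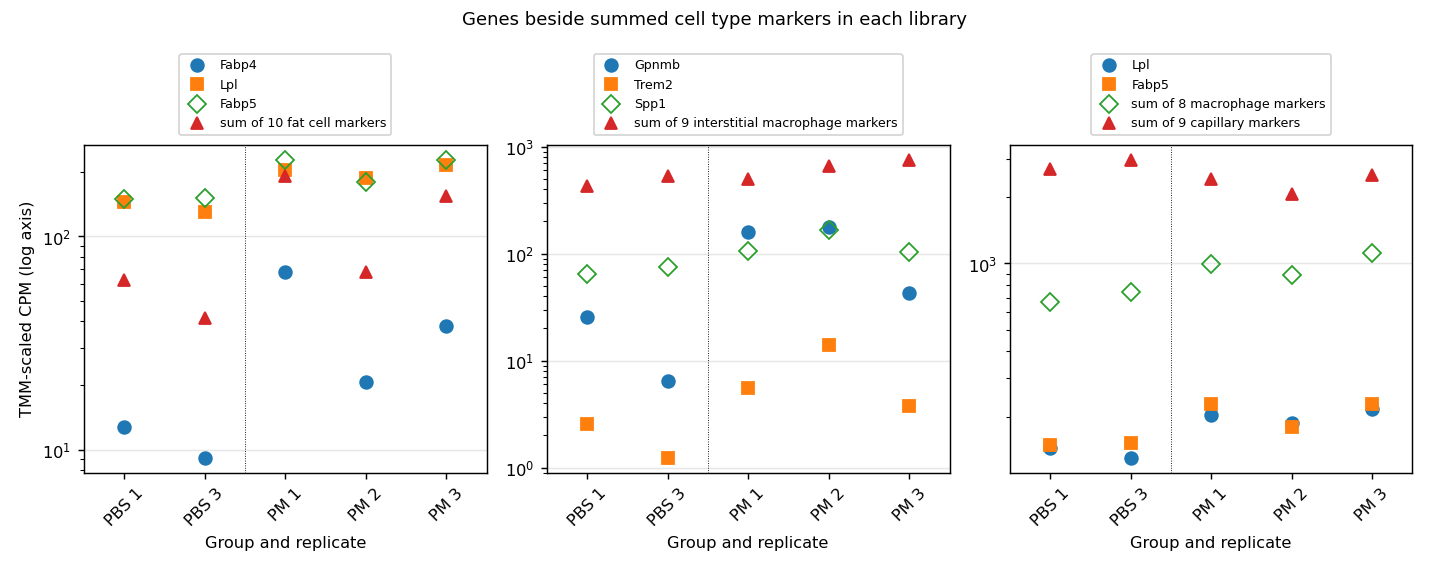
Each point is the TMM-scaled CPM (log axis) of a gene, or of a summed marker list, in 1 library; the dotted line parts PBS from PM. Fabp4 and the fat cell sum are highest in PM replicate 1 and lowest of the PM libraries in PM replicate 2, Gpnmb, Trem2 and Spp1 are highest in PM replicate 2, and the capillary sum is lower in every PM library than in either PBS library.

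Apoe, the apolipoprotein that carries cholesterol away from macrophages, was the only one of the 10 with a log2 fold below 0. It lies on chromosome 7 at 19696244 to 19701310 (minus strand). Its level was 740 and 730 CPM in PBS and 651, 670 and 644 CPM in PM. Every PM library was lower, at 0.877 to 0.912 times the PBS mean, and the same order held on library totals alone. The log2 fold was -0.17 ± 0.11 SE (edgeR, Benjamini-Hochberg adjusted p = 0.533), and 27.6% of tested genes had a lower one.

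Abcg1, a transporter that passes cholesterol to high-density lipoprotein, lies on chromosome 17 at 31057694 to 31117984 (plus strand). Its level was 43.9 and 70.5 CPM in PBS and 97.1, 66.1 and 78.9 CPM in PM. PM replicate 2 fell between the PBS libraries, which stood apart from each other. The log2 fold was 0.50 ± 0.23 SE (edgeR, Benjamini-Hochberg adjusted p = 0.398), with values of 0.20 without PBS replicate 1 and 0.88 without PBS replicate 3.

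The tetraspanins are proteins that span the membrane and organise other proteins in it. Cd63, the tetraspanin of lysosomes and late endosomes (chromosome 10 at 128896231 to 128912822, plus strand), stood at 410 and 337 CPM in PBS and 461, 549 and 418 CPM in PM. The lowest PM library exceeded the higher PBS library by little, and the log2 fold was 0.35 ± 0.14 SE (edgeR, Benjamini-Hochberg adjusted p = 0.310). Of its 50-base stretches 11.02% occur in other genes, most of them in Cd63-ps, which has no entry under that name. Cd9, a tetraspanin of the cell surface (chromosome 6 at 125460266 to 125494760, minus strand), stood at 127 and 133 CPM in PBS and 130, 115 and 163 CPM in PM. The PM libraries lay below, within and above the PBS range, and the log2 fold was 0.07 ± 0.15 SE (edgeR, Benjamini-Hochberg adjusted p = 0.893), or -0.08 without PM replicate 3. An annotated gene, Gm26728, overlaps Cd9 on the opposite strand, and its reads cannot be told apart if counting ignored strand.

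The 10 genes did not share an order of PM libraries. Gpnmb, Trem2, Spp1, Cd63 and Apoe were highest in PM replicate 2 and lowest in PM replicate 3 of the PM libraries, although the PM levels of Apoe spanned only 644 to 670 CPM. Fabp4, Fabp5, Lpl, Abcg1 and Cd9 were instead lowest in PM replicate 2 of the PM libraries. On the scale of log2(CPM + 0.5), PM replicate 2 differed from the mean of the other PM libraries by 1.51 for Trem2, 1.10 for Gpnmb, 0.67 for Spp1 and 0.32 for Cd63. The same difference was -1.27 for Fabp4, -0.40 for Abcg1, -0.34 for Fabp5, -0.34 for Cd9 and -0.16 for Lpl, and 0.05 for Apoe. These are differences between single libraries of 1 group and were not tested. Among pairs of the 10 genes, Lpl and Fabp5 had the most similar profile over the 5 libraries, with a root mean square difference of 0.10 between their centred log2(CPM + 0.5) values.

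**Figure D4:**
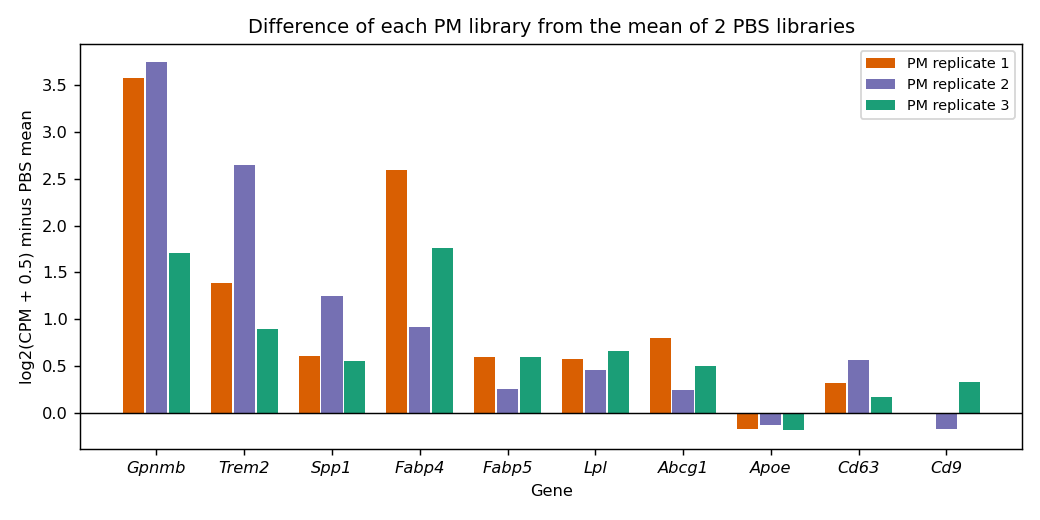
Bars give, for each gene, the log2(CPM + 0.5) of PM replicates 1, 2 and 3 minus the mean of the 2 PBS libraries. PM replicate 2 has the highest value for Gpnmb, Trem2, Spp1, Cd63 and Apoe (whose 3 bars are below 0) and the lowest for Fabp4, Fabp5, Lpl, Abcg1 and Cd9.

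Levels of different genes were compared per kilobase of exon (union of protein-coding transcripts in GENCODE M21). In PBS the order of mean levels was Apoe (367 CPM per kilobase), Cd63 (229), Fabp5 (153), Cd9 (106), Spp1 (42.4), Lpl (33.5), Fabp4 (12.2), Abcg1 (8.36), Gpnmb (3.54) and Trem2 (1.66). The libraries of Fabp4 and Abcg1 overlapped, as did those of Gpnmb and Trem2. In PM the mean levels were 327 CPM per kilobase for Apoe, 293 for Cd63, 215 for Fabp5, 111 for Cd9, 76.0 for Spp1, 49.4 for Lpl, 47.0 for Fabp4, 28.2 for Gpnmb, 11.8 for Abcg1 and 6.76 for Trem2. Gpnmb thus stood above Abcg1 in PM and below it in PBS, although their PM libraries overlapped. Other neighbours whose PM libraries overlapped were Apoe and Cd63, Cd9 and Spp1, Lpl and Fabp4, Fabp4 and Gpnmb, and Abcg1 and Trem2.

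Markers of macrophages summed to more in every PM library than in either PBS library. The list of markers of macrophages of any kind (8 genes, all tested) summed to 669 and 742 CPM in PBS and 996, 882 and 1115 CPM in PM; none passed edgeR's test, 6 had a higher level with unadjusted p under 0.05, and the median log2 fold was 0.69. Alveolar macrophage markers (10 tested, 0 passed, 3 higher at an unadjusted p below 0.05) summed to 329 and 606 CPM in PBS and 1243, 1571 and 1059 CPM in PM. Interstitial macrophage markers (9 tested) summed to 428 and 534 CPM in PBS and 503, 665 and 750 CPM in PM, groups that overlap. The largest part of this sum in each library was Lyve1 (named outside the rule). It was at 267 and 425 CPM in PBS and 239, 234 and 569 CPM in PM. Of the 9, 5 were above both PBS libraries in every PM library, against 15.5% of all genes tested. At an unadjusted p below 0.05 in edgeR's test 3 were higher, and the median log2 fold was 1.37. Monocyte markers (6 tested) summed to 273 and 280 CPM in PBS and 386, 428 and 352 CPM in PM, and 1 rose, Ccr2. The largest part of this sum in each library was Fn1 (named outside the rule), whose groups overlapped. It was at 188 and 179 CPM in PBS and 219, 247 and 157 CPM in PM. Of the 6, 4 were above both PBS libraries in every PM library. Capillary markers (9 tested, 0 passed, 5 lower at an unadjusted p below 0.05) summed to 2693 and 2958 CPM in PBS and 2421, 2073 and 2538 CPM in PM. Of the remaining marker lists, neutrophil markers summed to 126 to 261 CPM in PBS and 191 to 899 CPM in PM, atrial-type muscle markers to 185 to 509 and 153 to 432 CPM, and airway epithelium markers to 20473 to 21028 and 16090 to 31611 CPM. These groups overlap, and no marker of the 3 lists passed edgeR's test (1, 0 and 3 were higher with unadjusted p under 0.05). Nearly all of the airway sum was Scgb1a1, at 19966 and 20448 CPM in PBS and 15500, 21220 and 30526 CPM in PM. Of the 5 airway markers tested, 2 (Muc5b and Bpifb1) were above both PBS libraries in every PM library, and the rest overlapped. These 3 airway genes are named outside the rule. No marker of the first 5 lists was at 0 in all libraries, and their part in the 10 genes' levels was not tested.

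Set against the summed CPM of the 8 macrophage markers in the same library, the 10 genes parted. Most of the sum in every library was Lyz2 (named outside the rule), so the ratios follow this gene more than the other markers. Lyz2 was at 458 and 495 CPM in PBS and 713, 545 and 838 CPM in PM. The next largest marker, Csf1r (also named outside the rule), overlapped between groups. It was at 105 and 133 CPM in PBS and 115, 106 and 101 CPM in PM (log2 fold -0.15). Of the 8 markers, 7 had log2 folds above 0. Whether the ratios hold against the sum without Lyz2 was not tested, nor was which lung cells its RNA came from. The ratios are thus relative to this sum and not to a number of macrophages. Gpnmb amounted to 3.81% and 0.865% of that sum in PBS and 16.0%, 20.3% and 3.88% in PM. Fabp4 amounted to 1.91% and 1.23% in PBS and 6.80%, 2.36% and 3.39% in PM. For both, every PM library was above either PBS library, although PM replicate 3 and PBS replicate 1 were close for Gpnmb. Trem2, at 0.381% and 0.166% in PBS and 0.551%, 1.58% and 0.339% in PM, overlapped between groups.

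Lpl, at 21.7% and 17.6% of the macrophage marker sum in PBS and 20.5%, 21.4% and 19.5% in PM, stayed within the PBS range. Fabp5 was at 22.3% and 20.5% in PBS and 22.9%, 20.4% and 20.5% in PM. Spp1 was at 9.63% and 10.2% in PBS and 10.7%, 18.9% and 9.21% in PM. Of these, Spp1 was outside the PBS range by most, in PM replicate 2. Relative to the same sum every PM library was lower for Apoe (111% and 98.4% in PBS, 65.4%, 76.0% and 57.8% in PM) and for Cd9 (18.9% and 17.9% in PBS, 13.01%, 13.05% and 14.6% in PM). The differences of the log2 ratios, PM minus PBS, were 2.57 for Gpnmb, 1.31 for Fabp4, -0.66 for Apoe and -0.44 for Cd9, each with p = 0.2 by a two-sided exact permutation test, the smallest p the design allows, before any adjustment over the 10 genes. The difference for Gpnmb was 3.64 without PBS replicate 1 and 1.504 without PBS replicate 3, and that for Fabp4 ranged from 0.88 to 1.65 with a library left out. With the alveolar macrophage markers as the sum, the differences were 1.56 for Gpnmb and 0.29 for Fabp4, and the groups overlapped for both (exact permutation p = 0.4 and 1). The largest part of the alveolar sum was Car4 in PBS (225 and 283 CPM) and Chil3 in PM (591, 1014 and 453 CPM). Chil3 was at 18.2 and 127 CPM in PBS, and Car4, also on the capillary list, at 287, 225 and 298 CPM in PM. Both genes are named outside the rule.

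Other genes of the pathway came from 9 lists chosen with earlier results of these data known, and their calls are edgeR's over all genes tested, where 0.142% were called higher and 0.0854% lower. Of 19 tested further genes reported in lipid-associated macrophages, 2 rose and 0 fell, with a median log2 fold of 0.69. Ctsk, a lysosomal protease, was at 16.8 and 10.002 CPM in PBS and 44.2, 56.6 and 47.8 CPM in PM (log2 fold 1.88 ± 0.23 SE; edgeR, Benjamini-Hochberg adjusted p = 0.0140). Lgals3, the galectin of activated macrophages, was at 121 and 118 CPM in PBS and 210, 248 and 188 CPM in PM (log2 fold 0.85 ± 0.13 SE; edgeR, Benjamini-Hochberg adjusted p = 0.0379). In both, every PM library was above either PBS library.

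Around TREM2, 0 of 8 tested genes of its signalling and shedding passed. Tyrobp, the adaptor that carries its signal, was at 24.3 and 36.6 CPM in PBS and 39.6, 47.7 and 56.1 CPM in PM (log2 fold 0.65 ± 0.21 SE; edgeR, Benjamini-Hochberg adjusted p = 0.194). Plcg2, a phospholipase of the same route, had a log2 fold of 0.66 ± 0.27 SE. Around osteopontin, 1 of 10 tested receptors and proteases rose. It was Cd44, a receptor of osteopontin and hyaluronan, at 137 and 152 CPM in PBS and 229, 259 and 236 CPM in PM (log2 fold 0.74 ± 0.12 SE; edgeR, Benjamini-Hochberg adjusted p = 0.0379). Itga8, an integrin chain that binds osteopontin, had a log2 fold of -0.90 ± 0.18 SE (edgeR, Benjamini-Hochberg adjusted p = 0.0690), and Mmp7 was at 0 counts in every library.

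Around lipoprotein lipase, 0 of 7 tested partners passed, and their median log2 fold was -0.35, below 0 while that of Lpl itself was 0.56. Lipg, endothelial lipase, stood at 34.3 and 36.8 CPM in PBS and 27.2, 21.5 and 20.3 CPM in PM (log2 fold -0.63 ± 0.18 SE; edgeR, Benjamini-Hochberg adjusted p = 0.148). Apoc1, an apolipoprotein that lies beside Apoe, stood at 13.3 and 13.3 CPM in PBS and 21.2, 17.1 and 21.6 CPM in PM, the opposite side of PBS from Apoe (log2 fold 0.58 ± 0.20 SE; edgeR, Benjamini-Hochberg adjusted p = 0.224). Gpihbp1, which holds lipoprotein lipase on the capillary wall and is among the capillary markers, was not chosen by the rule for naming genes; its levels were 145 and 171 CPM in PBS and 114, 113 and 140 CPM in PM. Apoc3, Apoa5 and Lipc were at 0 counts in every library.

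Of the other fatty acid binding proteins, Fabp2, Fabp6, Fabp9 and Pmp2 were at 0 counts in every library, and 0 of the 3 tested passed. Fabp3, the form of heart and muscle, was at 34.4 and 24.1 CPM in PBS and 9.82, 17.9 and 16.8 CPM in PM, below PBS in every PM library (log2 fold -0.99 ± 0.26 SE; edgeR, Benjamini-Hochberg adjusted p = 0.140). Fabp1 had a log2 fold of -0.60 ± 0.69 SE. The third, Fabp12, had a log2 fold of -0.18 ± 0.42 SE, and the groups overlapped for Fabp1 and Fabp12. All 3 tested relatives thus had folds below 0 and both members, Fabp4 and Fabp5, above 0. Of all genes tested, 51.1% had a fold above 0, so the signs alone do not set the relatives apart. Of 23 other tetraspanins tested, 0 passed and 10 had folds above 0, with a median of -0.05. Tspan7 and Cd81 had the smallest p, with log2 folds of -0.70 ± 0.20 SE and -0.35 ± 0.11 SE.

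Of 12 lipid uptake receptors tested, 0 passed, with a median log2 fold of 0.01. Msr1, the class A scavenger receptor, was at 4.98 and 4.82 CPM in PBS and 14.5, 26.7 and 7.69 CPM in PM, with the highest value in PM replicate 2 as for Trem2 (log2 fold 1.72 ± 0.51 SE; edgeR, Benjamini-Hochberg adjusted p = 0.207). Lrp8, the other gene chosen by rule, had the smallest p of this list. It had 2 counts in each PBS library, under the floor of 3 counts, and 28, 6 and 23 counts in PM. Its log2 fold of 3.23 ± 0.90 SE (edgeR, Benjamini-Hochberg adjusted p = 0.145) rests on those few PBS counts. Of 12 tested genes of cholesterol efflux and storage, 0 passed. Npc2, which moves cholesterol out of lysosomes, was at 1221 and 976 CPM in PBS and 1676, 1801 and 1824 CPM in PM (log2 fold 0.69 ± 0.13 SE; edgeR, Benjamini-Hochberg adjusted p = 0.0530). Ch25h, which makes 25-hydroxycholesterol, had a log2 fold of 1.16 ± 0.38 SE.

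Among transcription factors of lipid-handling macrophages, Cebpb, a factor of myeloid cells and fat cells, stood at 73.9 and 69.8 CPM in PBS and 105.8, 103.8 and 109.6 CPM in PM, above PBS in every PM library. Its log2 fold was 0.57 ± 0.11 SE (edgeR, Benjamini-Hochberg adjusted p = 0.0592). Pparg, the nuclear receptor of fatty acid handling in alveolar macrophages and fat cells and a regulator of Fabp4, Lpl and Abcg1 (named outside the rule), stood at 5.10 and 9.63 CPM in PBS and 13.9, 6.45 and 9.21 CPM in PM, groups that overlap.

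The genes whose profile over the 5 libraries was most like that of Trem2, by the root mean square difference of centred log2(CPM + 0.5) among 13115 genes, were Tk1 (0.11), C1qa (0.14) and Ccnb2 (0.17), against a median of 1.04. C1qa, a complement chain made by macrophages, stood at 46.9 and 25.9 CPM in PBS and 92.9, 189 and 52.0 CPM in PM. Tk1, thymidine kinase, stood at 4.06 and 1.98 CPM in PBS and 6.90, 18.1 and 5.80 CPM in PM. For Gpnmb the nearest were Hal (0.09), Tnfrsf9 (0.52) and Alox15 (0.53), against a median of 1.76. Hal, histidine ammonia-lyase, stood at 2.67 and 0.370 CPM in PBS and 16.8, 21.9 and 5.17 CPM in PM. In PBS replicate 3 Hal was thus at the floor of 3 counts. Alox15 was below that floor in both PBS libraries, at 0.232 and 0 CPM, and its log2 fold was 5.04. At such levels the 0.5 added to each CPM narrows differences between libraries, so these 2 likenesses lean on it. These likenesses describe 5 libraries and carry no test.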

How the data were processed

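RNA sequencing of whole lung was deposited for 6 samples, 3 given PBS and 3 given PM. Per the labels' protocols, the SENSE mRNA-Seq kit (Lexogen) was used for the libraries. TopHat, Cufflinks and the build mm10 are named per the submitters' processing notes; for versions, counting program, annotation and use of strand the sources used here give nothing. The authors deposited counts, 1 whole number for each gene symbol and sample, with no normalization. A blank entry in the tables of PBS replicates 1 and 2 was left out, and of 79 entries that share a symbol the one with the highest total was kept, which set aside 44 of 23282.

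The 10 genes, the 9 pathway lists and the 10 marker lists were chosen with earlier results of these data known. The identical tables of PBS replicates 1 and 2 counted as 1 library, as the design provided. Genes passing filterByExpr (14057, with all 10 genes among them) were scaled by TMM and compared by the quasi-likelihood test of edgeR 4.0.16 in R 4.3.3 (robust, two-sided, no covariates) with Benjamini-Hochberg adjustment over all of them. Standard errors are log2 fold over the root of F. The test was run on simulated counts with known changes before use. All 10 genes are named whatever their result; from each pathway list, every called gene and the 2 with the smallest p; for Trem2 and Gpnmb, the 3 genes of at least 1 CPM on average with the most similar profile; others are said to be chosen after their values were seen or outside the rule. One result that this rule would name is not reported here. Exact permutation tests compared 11 ratios within libraries. Alternatives were other scalings and filters, DESeq2 1.42.0, limma-voom (limma 3.58.1), non-robust estimation, each library left out, the replicate number as a block, all 6 tables, the counts without Rn45s and haemoglobin genes, and an adjusted p of 0.10. Coordinates and start-site sequences are from RefSeq, exon lengths and coding sequences from GENCODE M21, both on GRCm38.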

Additional observations from a re-analysis of the deposited data

How the results depend on the processing

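The 10 genes kept the direction of their folds under the 16 alternatives to the fit, except Cd9, whose log2 fold was -0.082 without PM replicate 3 and at most 0.17 (without PM replicate 2) with a library left out. The count of the 10 that were called, 0 by edgeR, was 1 (Lpl) at an adjusted p below 0.10 and 1 (Lpl) with no filter on low counts, 4 by DESeq2, 4 (Spp1, Lpl, Fabp4 and Fabp5) with all 6 tables as deposited, which count the identical pair as 2 samples, and 0 to 3 with a library left out. Over all genes the count of 32 was 206, 275, 382 and 635 under those 4 alternatives in that order, 51 (40 higher and 11 lower, against 20 and 12) on library totals alone, 81 with at least 1 CPM in 2 libraries, and 1 (without PBS replicate 1) to 427 (without PM replicate 3) with a library left out. With 1 PBS library left, that library is assumed to vary like the PM libraries. With the replicate number as a replicate block, 5 of the 10 (Gpnmb, Spp1, Lpl, Fabp4 and Fabp5) and 353 genes in all were called. The labels do not say that a number marks shared samples, and only replicates 1 and 3 are in both groups. The correlations across genes of same-numbered deviations were -0.03 and 0.07. With 2 PBS libraries, whose deviations mirror each other, such correlations cannot tell whether the numbers pair the samples. The fit with the block rests on 1 residual degree of freedom. The cause of these differences was not tested.

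The ratios to macrophage markers near 0 changed sign. For Lpl, at 0.07, the log2 difference was -0.95 with alveolar macrophage markers and ranged from -0.085 (without PBS replicate 3) to 0.22 with a library left out. For Spp1, at 0.31, it was -0.70 with alveolar markers, and for Abcg1, at 0.02, -0.99 with alveolar markers and -0.24 to 0.29 with a library left out. For Fabp5, at -0.01, it ranged from -0.071 to 0.052, and for Cd63, at -0.15, from -0.36 to 0.070, with a library left out. With alveolar markers the differences were -1.03 for Fabp5 and -1.16 for Cd63. The ratio of Fabp5 to Fabp4 kept its direction without each library. At 22 and 10 counts in PBS, the depth limits Trem2 the most.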
